A study of Mus musculus with 4 samples.

Results

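Smooth muscle cells of the mouse eye were picked from single-cell libraries by their own transcripts. A cell was taken when it held 5 or more unique molecular identifiers (UMIs, each standing for 1 captured RNA molecule) of Myh11 and at least 1 UMI each of Acta2 and Tagln, the smooth muscle myosin heavy chain, actin and transgelin genes. A cell with 5 or more of 9 endothelial genes detected (Pecam1, Cdh5, Kdr, Flt1, Plvap, Cldn5, Tie1, Egfl7 and Emcn) was left out. The rule took 774 of 36701 cells, which were 132 from the aged CNV library, 196 from the aged control library, 220 from the young CNV library and 226 from the young control library. Since Myh11, Acta2, Tagln and the endothelial genes chose the cells, their levels describe the selection and are not results.

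The 4 libraries were 10x Genomics droplet libraries of retina and choroid from WT mice, with 1 library per group. The aged mice were over 18 months old and the young mice 6 to 8 weeks old. At each age one library came 3 days after laser burns (spots of 100 µm, 0.150 s at 200 mW and 532 nm), which model choroidal neovascularization (CNV), and the other came from mice without the burns. Choroid-sclera and retina were dissociated in papain, rods were depleted with antibodies to CD73, and both suspensions were mixed before loading, so each library pools choroidal, scleral and retinal vessels, and the number of mice behind a library is not given in the sources used here. With 1 library per group no difference between ages or between laser and control could be tested, and every such value below compares 2 libraries, not 2 conditions.

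Vascular smooth muscle cells wrap arteries, arterioles and larger veins, and set vessel bore by sliding smooth muscle actin along Myh11 filaments. Their contractile genes are switched on together by serum response factor and its coactivator myocardin, and Notch3 keeps the arterial form of the cell. After injury, smooth muscle cells of large arteries are known to lower this programme and to make collagen, fibronectin and osteopontin instead, a change called the synthetic state. Pericytes, the mural cells of capillaries, share Notch3, Rgs5 and Pdgfrb with smooth muscle cells and make little Myh11.

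The libraries held 7731 cells (aged CNV), 6676 (aged control), 10867 (young CNV) and 11427 (young control), with 50848238 to 111908519 UMIs each. The smooth muscle cells had a median of 6714 UMIs per cell in aged CNV, 7884 in aged control, 8870 in young CNV and 8842 in young control. Their summed UMIs were 1098140, 1690336, 2322624 and 2232966 in the same order. The median over all cells of a library was 6875 in aged CNV, 6428 in aged control, 7223 in young CNV and 2593 in young control, so the young control library was the shallow one as a whole while its smooth muscle cells were not. Levels below are UMIs of a gene per 1e+06 UMIs of the smooth muscle cells of a library (CPM), which are not scaled by gene length. Across the series 124 cell barcodes occurred in 2 libraries, and 4 of them were smooth muscle cells.

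The label held against markers that the rule did not use. Des, the muscle intermediate filament desmin, had at least 1 UMI in 81.1% of the cells in aged CNV, 73.0% in aged control, 82.7% in young CNV and 82.3% in young control. In rods of the same libraries (cells with 8 or more rod markers), which should lack it, the shares were 1.47%, 1.05%, 2.15% and 3.39% in that order. Those rods had median depths of 3681, 4099, 2150 and 1726 UMIs, below the smooth muscle cells. Lmod1, the actin-nucleating protein leiomodin, was found in 89.4% to 97.3% of the smooth muscle cells of a library and in 3.34% to 7.66% of rods. Cnn1 (calponin) was found in 44.7% to 59.7% against 0% to 0.262% of rods, and Myocd (myocardin) in 69.0% to 82.7% against 0% to 0.393%. Synpo2 reached 65.04% to 81.6% of the smooth muscle cells, but also 31.4% to 46.4% of rods, and so did not mark the cells here.

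Markers of other cell classes were found among the selected cells, and the source of these transcripts was not tested. Smooth muscle cells share Rgs5 and Pdgfrb with pericytes, so the pericyte sum does not show that transcripts came from pericytes. Pericyte markers (10 genes, among them Rgs5, Pdgfrb and Vtn) summed to 5822 CPM in aged CNV, 7298 in aged control, 7969 in young CNV and 7992 in young control, and Atp13a5 alone was at 0, in aged CNV. Fibroblast markers (10 genes, among them Dcn, Col1a1 and Lum) summed to 1941, 311, 5067 and 1841 CPM in the same order of libraries, with Dpt and Clec3b at 0 in aged control. Leukocyte markers (12 genes) gave 1381, 304, 1831 and 543 CPM, and rod markers (12 genes) gave 271, 381, 549 and 2588 CPM. RPE (retinal pigment epithelium) markers (10 genes) gave 219, 2502, 257 and 836 CPM, and epithelial markers (10 genes) gave 1681, 212, 164 and 1041 CPM. Best1, Lrat and Slc6a13 were at 0 in aged CNV, Best1 in aged control and Slc6a13 in young CNV, while Krt5, Krt14, Krt12, Epcam and Cdh1 were at 0 in aged control, Krt12 in aged CNV and Epcam in young CNV. Müller glia markers (8 genes) lay between 227 and 820 CPM, highest in aged control, with Kcnj10 at 0 in young control. Endothelial genes stayed between 134 and 242 CPM and skeletal muscle markers between 37.3 and 155 CPM. Fibroblast and leukocyte markers were thus higher in both CNV libraries than in the control library of the same age, RPE markers were lower in both, and rod markers were highest in young control. Epithelial markers were higher in aged CNV than in aged control and lower in young CNV than in young control. In 702 of the 774 cells none of 9 other-class marker lists held 1% or more of the cell's UMIs.

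Cells just inside the Myh11 threshold resembled cells just outside it in part. At exactly 5 Myh11 UMIs 30 cells were taken, and at exactly 4 Myh11 UMIs 29 cells were not. Among genes that the rule did not use, Pln stood at 55.6 CPM in the cells inside and 10.3 CPM in those outside, Myocd at 97.3 and 71.9, Lmod1 at 334 and 283, Des at 472 and 483, Cnn1 at 13.9 and 41.1, and Rgs5 at 10348 and 12218 CPM, so the genes had no common order. On the endothelial side, 1 taken cell had 4 endothelial genes and 2 cells with 5 were left out.

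The contractile machinery was read over a list of 34 genes besides the 3 of the rule. All of it was measured in every library, and it summed to 27062 CPM in aged CNV, 36332 in aged control, 34878 in young CNV and 36678 in young control, against 2760, 2970, 3508 and 3124 CPM in the other cells of the same libraries. Tpm1, the tropomyosin that lies along actin filaments, was at 2423 CPM in aged CNV, 3674 in aged control, 3219 in young CNV and 3670 in young control. Tpm2, a second tropomyosin, was at 2135, 2895, 4554 and 4647 CPM, so that both young libraries stood above both aged ones. Myl9, the regulatory light chain that Mylk phosphorylates to start contraction, was at 2468, 3428, 3798 and 4154 CPM. Mylk itself was at 2241, 2921, 1982 and 2271 CPM, with no order by age. Pln (phospholamban, the brake on the calcium pump of the sarcoplasmic reticulum) was at 315, 607, 359 and 402 CPM and highest in aged control. Actg2, the actin of visceral muscle, was at 122, 140, 405 and 235 CPM and was lower in both aged libraries than in both young ones.

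**Figure D1:**
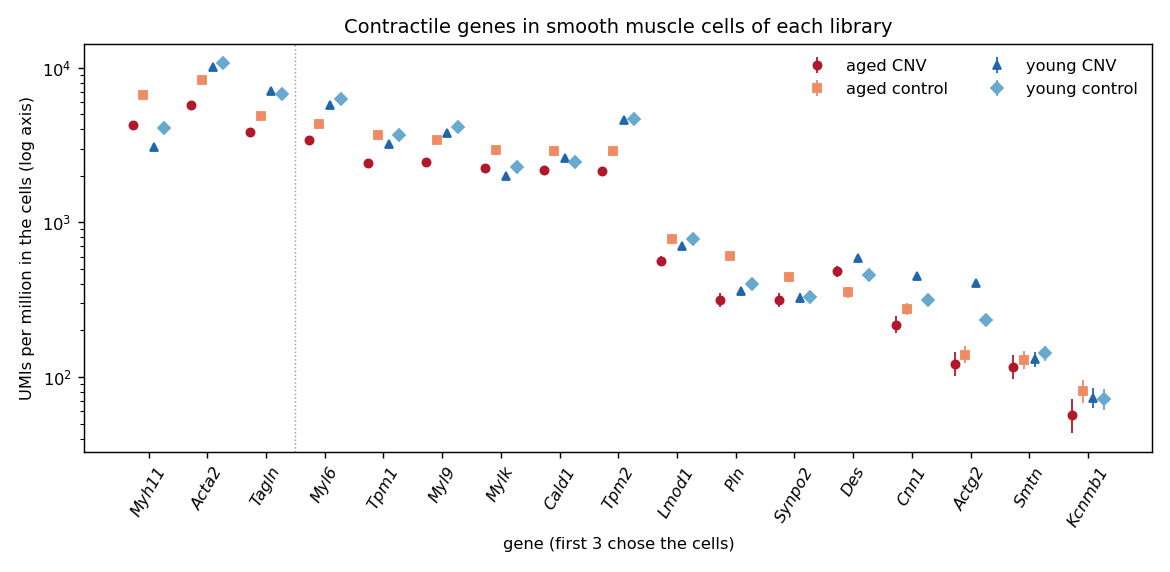
Levels of contractile genes in the smooth muscle cells of each library, in CPM on a log axis, with exact 95% Poisson intervals and with the 3 genes that chose the cells left of the dotted line. Tpm2 and Actg2 sit higher in both young libraries than in both aged ones, and Pln is highest in aged control.

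The promoters of these genes were searched for the CArG box, the motif that serum response factor binds, on both strands. The box was taken as CC, then 6 letters that are each A or T, then GG. A window from 250 bases before to 50 bases after the annotated start was on hand from RefSeq (build GRCm38.p6) for 29 of the 37 genes (34 of the list and 3 of the rule). Myl9, Myl6, Ldb3 and Vcl had a box in a window, which is 13.8% of the 29 genes, against 488 of 27025 genes (1.81%) over the whole table. The windows of Acta2, Des, Cnn1 and Lmod1 held no exact match. Boxes with a G or C among the 6 inner letters were not counted, and boxes outside the window were not searched for. A window without a match may therefore still hold a site for serum response factor. The windows below are shown because they belong to the light chains of smooth muscle myosin and to a gene that separated smooth muscle cells from both other classes. Each is read 5′ to 3′ on the gene's strand with the box in capitals.

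Myl9 (regulatory light chain), chr2:156775214-156775513, plus strand, box starting 161 bases before the start: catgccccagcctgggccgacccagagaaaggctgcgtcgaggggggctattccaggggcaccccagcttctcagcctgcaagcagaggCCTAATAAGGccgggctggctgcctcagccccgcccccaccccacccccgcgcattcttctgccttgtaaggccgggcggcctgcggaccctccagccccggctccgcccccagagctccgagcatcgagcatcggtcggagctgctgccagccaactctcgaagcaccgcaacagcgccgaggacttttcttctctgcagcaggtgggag

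Myl6 (essential light chain), chr10:128492960-128493259, minus strand, box starting 50 bases before the start: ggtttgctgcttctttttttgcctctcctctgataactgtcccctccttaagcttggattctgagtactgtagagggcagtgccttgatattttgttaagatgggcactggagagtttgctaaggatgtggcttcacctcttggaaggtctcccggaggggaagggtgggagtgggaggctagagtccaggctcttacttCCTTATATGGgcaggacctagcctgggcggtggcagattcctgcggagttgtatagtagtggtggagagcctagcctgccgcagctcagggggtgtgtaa

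Ldb3 (a Z-disc and dense-body protein), chr14:34588632-34588931, minus strand, box starting 35 bases before the start: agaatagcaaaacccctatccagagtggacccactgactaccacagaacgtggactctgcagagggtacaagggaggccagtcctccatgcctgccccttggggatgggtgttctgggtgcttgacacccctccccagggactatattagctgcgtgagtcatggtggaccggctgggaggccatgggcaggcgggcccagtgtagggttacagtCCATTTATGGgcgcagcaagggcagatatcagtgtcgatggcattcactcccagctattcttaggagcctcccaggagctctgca

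Smooth muscle cells were set against pericytes and fibroblasts of the same libraries, which is the comparison the 4 libraries can test, since each holds every class. Each class was summed within each library, and the sums were fitted with edgeR's quasi-likelihood test with the library as a block, and genes used by either rule are not counted as results. The pericyte rule used 8 mural genes, Pdgfrb, Kcnj8, Abcc9, Higd1b, Rgs5, Vtn, Cspg4 and Notch3. It asked for 4 or more of them, at least 1 of Kcnj8, Abcc9 and Higd1b, and under 5 Myh11 UMIs. It took 1549 cells, but 1250 of them had 4 or more of 9 fibroblast genes detected. A stricter pericyte rule, chosen after that was seen, allowed at most 3 fibroblast genes and kept 299 cells, of which 49 came from aged CNV, 15 from aged control, 100 from young CNV and 135 from young control. The fibroblast rule took 7529 cells. Since the classes were split at 5 Myh11 UMIs, genes that go along with Myh11 were bound to differ, and the counts below describe how far the difference reaches.

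Of the 34 contractile genes, 33 were higher in smooth muscle cells than in cells of the pericyte rule at a Benjamini-Hochberg adjusted p under 0.05, with a median log2 fold of 3.19, while 15.6% of the 12477 genes tested were higher, 16.5% were lower, and the median over all was -0.01. Against the stricter rule 32 of 34 were higher and none lower, with a median of 2.46 beside 0.04 over all genes. There 9.29% of 9846 genes were higher and 6.75% lower. Against fibroblasts 33 of 34 were higher, with a median of 3.46 beside -0.05, where 15.9% of 14350 genes were higher and 18.2% lower. Those shares stand for 2278 and 2617 genes, which became 1424 and 1582 without the young control library. Cnn1 differed by a log2 fold of 6.56 ± 0.43 from the stricter pericytes (SE; adjusted p = 3.1e-05) and by 8.25 ± 0.53 from fibroblasts (adjusted p = 0.000275). Cnn1 was at 219 CPM in aged CNV, 275 in aged control, 451 in young CNV and 317 in young control, against 3.54, 0, 0 and 6.97 CPM in the stricter pericytes of those libraries.

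Members of the contractile list differed in size of fold. Pln differed by 6.55 ± 0.29 (adjusted p = 1.75e-05) from the stricter pericytes and by 9.40 ± 0.26 (adjusted p = 5.03e-05) from fibroblasts. Ldb3 differed by 6.51 ± 0.53 (adjusted p = 7.45e-05) and 6.11 ± 0.30 (adjusted p = 0.000135). Myl9 differed by 2.43 ± 0.22 and 5.44 ± 0.14, and Myl6 by 2.27 ± 0.16 and 2.47 ± 0.17, in the same order, so that Myl9 was closer between smooth muscle cells and pericytes than between smooth muscle cells and fibroblasts. Des separated the mural classes less, with 0.90 ± 0.22 against the stricter pericytes (adjusted p = 0.0207) and 3.53 ± 0.30 against fibroblasts. Vcl, the focal adhesion protein vinculin, missed the threshold against the stricter pericytes (0.42 ± 0.19, adjusted p = 0.194). The exception in the list was Smoc1, a matricellular protein, lower than in cells of the pericyte rule (-2.50 ± 0.35, adjusted p = 0.00293) and than in fibroblasts (-1.82 ± 0.41, adjusted p = 0.0186), and at 0.83 ± 0.29 against the stricter pericytes (adjusted p = 0.0914).

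Among the 10 genes with the largest folds over the pericyte rule, several lie outside the contractile list. Susd5 was higher by 8.59 ± 0.41, Xirp1, an actin-binding protein of striated muscle, by 8.07 ± 0.38, and Fbxl22, a ubiquitin ligase component of the cardiac Z-disc, by 7.48 ± 0.28. Against the stricter pericytes these 3 genes differed by 7.51 ± 0.48, 5.15 ± 0.42 and 6.85 ± 0.34. Ctnna3, a catenin of the cell junctions of heart muscle, and Tesc were 2 further genes outside the list among these 10, and each of them was also higher against the stricter rule. Against fibroblasts the largest fold belonged to Olfr558 (11.01 ± 0.22), an odorant receptor gene. At the other end, the gene with the largest fold on the side of fibroblasts was Prg4, a lubricating proteoglycan (-5.93 ± 0.31). Myoc and Chil1, which were lower than in cells of the pericyte rule (-4.19 and -4.03), were higher than in the stricter pericytes (3.52 and 2.21), so their direction depended on the fibroblast genes of the cells set against them.

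**Figure D2:**
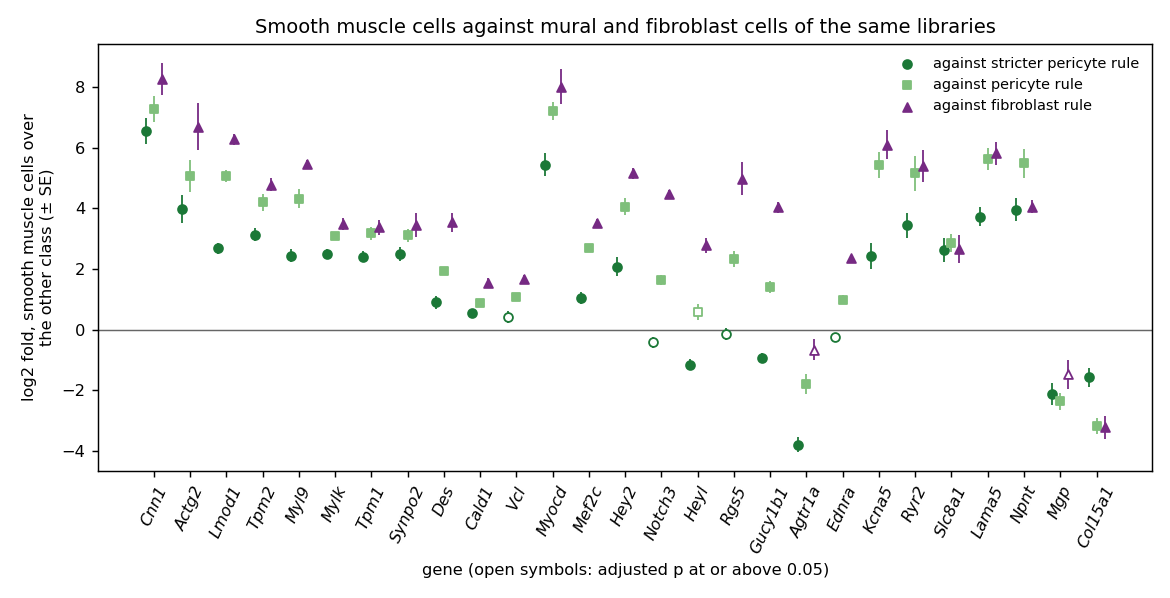
Log2 fold of smooth muscle cells over the stricter pericyte rule, the pericyte rule and the fibroblast rule, with SE, from sums per class in 4 libraries; open symbols had an adjusted p of 0.05 or more in edgeR's quasi-likelihood test. The contractile genes on the left lie above 0 in all 3 comparisons, whereas Heyl, Gucy1b1 and Ednra are near or below 0 against the stricter pericytes only. Notch3 and Rgs5 are genes of the pericyte rule, so their points are not results.

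The factors that drive the contractile genes differed in how far they were particular to the cells. Myocd was at 304 CPM in aged CNV, 332 in aged control, 253 in young CNV and 230 in young control, against 0, 0, 7.97 and 9.29 CPM in the stricter pericytes. The log2 fold was 5.44 ± 0.38 over the stricter pericytes (adjusted p = 3.74e-05) and 8.01 ± 0.58 over fibroblasts (adjusted p = 0.000423). Srf, its partner, was at 16.4, 18.3, 21.5 and 21.9 CPM and differed by 1.58 ± 0.25 from fibroblasts (adjusted p = 0.00545) but missed the threshold against the stricter pericytes (0.66 ± 0.36, adjusted p = 0.30). Mef2c, a muscle transcription factor, was higher than in both (1.05 ± 0.19 and 3.51 ± 0.15). Of the regulator list, 23 genes were tested against the stricter pericytes, where 6 were higher and 3 lower, and 26 against fibroblasts, where 12 were higher and 2 lower.

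Notch3 is a gene of the pericyte rule, so its levels and folds here describe the selection and are not results. In smooth muscle cells it was at 871 CPM in aged CNV, 925 in aged control, 548 in young CNV and 570 in young control. The stricter pericytes had 946, 1790, 866 and 813 CPM, and the log2 fold of smooth muscle cells over them was -0.42 ± 0.17. The fold over fibroblasts was 4.46 ± 0.16, with cells of the pericyte rule left out of the fibroblasts. Among target genes of Notch signalling, the repressor Hey2 was higher than in the stricter pericytes (2.07 ± 0.31, adjusted p = 0.00192), and Heyl was lower (-1.16 ± 0.18, adjusted p = 0.00212). Jag1, a Notch ligand, gave -0.11 ± 0.20 (adjusted p = 0.807). Of 10 Notch pathway genes tested there, 3 were higher and 3 lower.

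Receptors and channels split into those of smooth muscle cells and those that pericytes had at least as much of. Of 37 genes tested against the stricter pericytes, 17 were higher and 7 lower, and of 43 tested against fibroblasts 36 were higher and none lower. Ryr2, the calcium release channel, was at 224 CPM in aged CNV, 317 in aged control, 112 in young CNV and 127 in young control, with 3.43 ± 0.42 over the stricter pericytes (adjusted p = 0.000602). Kcna5, a voltage-gated potassium channel, differed by 2.43 ± 0.41 (adjusted p = 0.00368), Npy1r, the receptor for neuropeptide Y from sympathetic nerves, by 2.22 ± 0.38 (adjusted p = 0.00359), and Adra1a, the receptor for noradrenaline, by 2.33 ± 0.49 (adjusted p = 0.0111). The angiotensin receptors went opposite ways. Agtr1b was higher than in the stricter pericytes (2.81 ± 0.48, adjusted p = 0.0037) and Agtr1a lower (-3.79 ± 0.23, adjusted p = 3e-05). Gucy1b1, a subunit of the nitric oxide receptor, was lower too (-0.92 ± 0.15), while Ednra, the endothelin receptor of vessel walls, gave -0.25 ± 0.16 (adjusted p = 0.36). Rgs5 is a gene of the pericyte rule, so its fold of -0.14 ± 0.19 is not a result. Cacna1c, the L-type calcium channel, gave 0.16 ± 0.22 (adjusted p = 0.727).

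The matrix around the cells had its own members. Lama5, a laminin chain of basement membranes, was higher than in the stricter pericytes (3.73 ± 0.33) and fibroblasts (5.81 ± 0.37), and so were Npnt (3.95 ± 0.38 and 4.04 ± 0.21) and its receptor subunit Itga8 (4.63 ± 0.34 and 2.90 ± 0.32). Itga8 was at 86.5 CPM in aged CNV, 89.9 in aged control, 186 in young CNV and 112 in young control. Col15a1, a collagen of basement membranes, was lower in both comparisons (-1.58 ± 0.31 and -3.22 ± 0.38), and Mgp, an inhibitor of calcification, was lower than in the stricter pericytes (-2.11 ± 0.36, adjusted p = 0.00391). Of the matrix list 15 of 35 tested genes were higher and 10 lower than in the stricter pericytes. The balance was the other way against the pericyte rule, with 13 of 36 higher and 15 lower, and against fibroblasts, with 13 of 35 higher and 17 lower. The stricter rule capped fibroblast genes in the pericytes but not in the smooth muscle cells, of which 85 had 5 or more. Mfap5, a gene of that cap, was kept in the list against pericytes. Fn1 (fibronectin) was higher than in the stricter pericytes (2.69 ± 0.26) and lower than in cells of the pericyte rule (-1.89 ± 0.39) and fibroblasts (-2.77 ± 0.38). Among secreted factors, Fgf1 and Bmp2 were higher than in the stricter pericytes by 3.00 ± 0.24 and 1.24 ± 0.20. Of 32 interferon-response and antigen presentation genes, 11 were lower and none higher than in the stricter pericytes, with a median of -0.82. Ifitm3 was among the lower ones (-1.62 ± 0.22, adjusted p = 0.00106).

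The cells varied along Myh11 within each library. When the cells of a library were ordered by Myh11 CPM and cut into 3 equal parts, the contractile list, which leaves out the 3 genes of the rule, summed to 14137 CPM in the low, 33463 in the middle and 45624 in the high part of aged CNV. In aged control the sums were 22883, 39225 and 49517 CPM, in young CNV 20525, 37720 and 52251 CPM, and in young control 22261, 39294 and 51787 CPM. Myh11 chose the cells and shares its UMI total with the other genes, so this order describes the selected cells and no test rests on it. Fibroblast markers ran the other way between the low and high parts, with 3536 CPM in the low and 137 in the high part of aged CNV, 491 and 203 in aged control, 9114 and 2459 in young CNV, and 3550 and 459 in young control. Their part in the order by Myh11 was not tested. Rgs5 had no common order, since it was highest in the high part of aged CNV (7642 CPM), in the middle part of aged control (8715 CPM) and young control (8063 CPM), and in the low part of young CNV (7699 CPM).

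**Figure D3:**
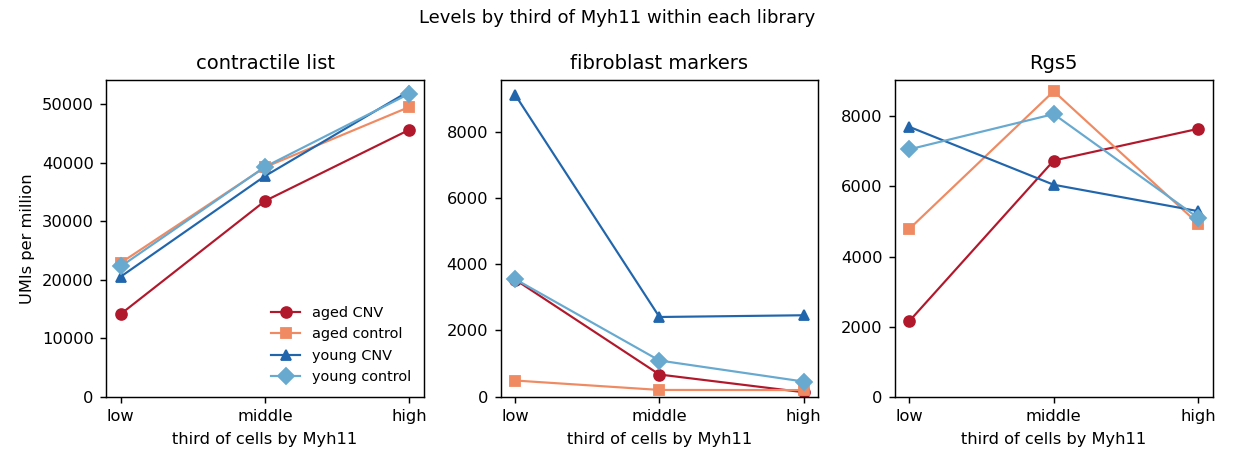
Summed CPM of the contractile list (without the 3 genes of the rule), of 10 fibroblast markers and of Rgs5 in the 3 equal parts of each library's smooth muscle cells by Myh11. The contractile sums climb with Myh11 in all 4 libraries, and fibroblast markers are highest in the low part, up to 9114 in young CNV.

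Smooth muscle cells made up 1.71% of the cells in aged CNV (exact 95% interval 1.43% to 2.02%), 2.94% in aged control (2.54% to 3.37%), 2.02% in young CNV (1.77% to 2.31%) and 1.98% in young control (1.73% to 2.25%). The share in aged CNV was 0.582 of that in aged control (0.463 to 0.729), and the share in young CNV was 1.02 of that in young control (0.846 to 1.24). Set against the vascular cells only (smooth muscle cells, cells of the pericyte rule and cells with 5 or more endothelial genes), the shares were 14.9% in aged CNV, 22.8% in aged control, 12.9% in young CNV and 16.5% in young control, which gave ratios of 0.651 and 0.782. The ratio of aged control to young control was 1.48 (1.22 to 1.81) over all cells, but 0.893 over cells in which rod markers held under 2% of the UMIs. It was 0.851 after cells were thinned to 3000 UMIs and taken at 3 or more Myh11 UMIs. Cells below that depth were left out there, which kept 5339 of 11427 cells in young control and 5261 of 6676 in aged control. Rods were depleted from each retinal suspension, so shares of all cells carry that step. All intervals here and below cover counting error only.

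Between the CNV and control libraries a gene was called higher or lower at 2-fold or more in CPM, among genes with 20 or more UMIs over both libraries. In the aged pair 7.81% of 11031 genes were called higher and 4.01% lower, and in the young pair 5% of 11626 genes were called higher and 3.84% lower. None of the 34 contractile genes was called higher in either pair, and 1 was called lower, Map3k7cl in the aged pair (102 CPM in aged CNV against 208 in aged control, ratio 0.491, 0.393 to 0.609). That call ended without cells with 5 or more of 9 fibroblast genes (0.550), after thinning to 2000 UMIs per cell (0.633) and with every cell weighted equally (0.626). The list's median log2 ratio was -0.39 in the aged pair and -0.09 in the young pair, beside -0.02 and 0.01 over all measured genes. Lmod1 was at 563 CPM in aged CNV against 776 in aged control (ratio 0.725, 0.658 to 0.798), and at 704 CPM in young CNV against 786 in young control (0.897, 0.838 to 0.96). The Cnn1 ratio was 0.796 (0.678 to 0.932) in the aged pair and 1.42 (1.29 to 1.57) in the young pair. Whether the laser differences differ between the ages could not be tested for any gene or list.

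Among the lists by role, synthetic-state genes had the most calls in the young pair. Of 30 measured, 20 were at least 2-fold higher in young CNV, with a median log2 ratio of 1.41. In aged CNV 16 of 30 were at least 2-fold higher, with a median of 1.07. Some marker lists of other classes had larger shares of calls in the young pair, with 12 of 12 rod markers lower and 9 of 11 leukocyte markers higher. Spp1, the secreted matrix protein osteopontin, was at 545 CPM in aged CNV against 147 in aged control (ratio 3.71, 3.2 to 4.32), and at 682 CPM in young CNV against 24.6 in young control (27.7, 21.1 to 36.9). Col1a1, the main fibrillar collagen, was at 392 CPM in aged CNV against 46.7 in aged control (8.40, 6.59 to 10.8), and at 1241 CPM in young CNV against 148 in young control (8.37, 7.47 to 9.41). Fn1 was at 174 CPM in aged CNV against 47.9 in aged control (3.63, 2.78 to 4.77), and at 447 CPM in young CNV against 77.5 in young control (5.76, 4.9 to 6.81). Many of these genes are also fibroblast genes, and the fibroblast marker sums given above moved the same way, with 1941 CPM in aged CNV against 311 in aged control and 5067 CPM in young CNV against 1841 in young control. Among cells with 5 or more endothelial genes, 18 of 30 were higher in the aged pair (median 1.42, beside 10.6% of all genes). In the young pair 18 of 31 were higher there (median 1.17, beside -0.04 over all genes), and none was lower in either pair. In fibroblasts 4 of 31 were higher and 3 lower in the aged pair, where 10% of all genes were higher. In the stricter pericytes 4 of 19 were higher and 4 lower, where 15.5% of all genes were higher. In the young pair 6 of 31 were higher and 1 lower in fibroblasts (median 0.24, beside -0.07 over all genes). In the stricter pericytes 5 of 25 were higher and 1 lower there (median 0.38, beside -0.004). Shares of all genes were not counted in these other classes for the young pair.

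In smooth muscle cells the aged difference in this list was smaller without the cells that held transcripts of several fibroblast genes. In aged CNV 9 cells, in aged control 3, in young CNV 50 and in young control 23 had 5 or more of 9 fibroblast genes detected. Without them 4 of 26 measured synthetic-state genes were called higher in the aged pair, with a median of 0.14, and 14 of 29 in the young pair, with a median of 0.99. The Col1a1 ratio became 1.11 in the aged pair and 3.92 in the young pair. Dcn, Lum, Col1a1 and Col1a2 belong both to this list and to the 9 fibroblast genes that chose the cells left out. Part of these falls was therefore fixed by the filter, and the source of the transcripts was not tested. Without cells in which another class held 1% or more of the UMIs, the Spp1 ratio in the young pair was 9.32 and the Col1a1 ratios were 4.89 (aged) and 3.28 (young). The Fn1 ratio in the young pair was 1.98 there, so its call ended, and 2.22 without the cells with 5 fibroblast genes. Leukocyte markers, which stood at 1381 CPM in aged CNV against 304 in aged control and at 1831 CPM in young CNV against 543 in young control, moved with Spp1 too, and their part in it was not tested.

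Elastic fibre and basement membrane genes had more calls in the young pair, with 10 of 36 higher and none lower, against 5 of 32 higher and 2 lower in the aged pair. Without the cells with 5 fibroblast genes 5 of 35 were higher and none lower in the young pair, with a median log2 ratio of 0.46. In the aged pair none of 29 was higher and 4 were lower, with a median of -0.28. Mfap5 belongs both to this list and to the genes of that filter. Mgp was at 2505 CPM in aged CNV against 958 in aged control (ratio 2.61, 2.46 to 2.78), and at 5651 CPM in young CNV against 1706 in young control (3.31, 3.19 to 3.43). Without those cells its ratios were 1.54 and 4.32. Mfap4, a microfibril protein, was at 27.3 CPM in aged CNV against 1.77 in aged control, and at 104 CPM in young CNV against 21.5 in young control (4.83, and 2.66 without cells in which another class held 1% of the UMIs). Eln, which encodes elastin, was at 77.4 CPM in aged CNV against 166 in aged control (0.466, 0.361 to 0.595), and at 147 CPM in young CNV against 160 in young control (0.918, 0.79 to 1.07). Bmp6, a growth factor of the BMP family, was at 51 CPM in aged CNV against 104 in aged control (0.490, 0.356 to 0.665) and at 37.5 CPM in young CNV against 77 in young control (0.486, 0.371 to 0.633). Without the cells with 5 fibroblast genes both Bmp6 calls ended, at 0.502 and 0.593.

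**Figure D4:**
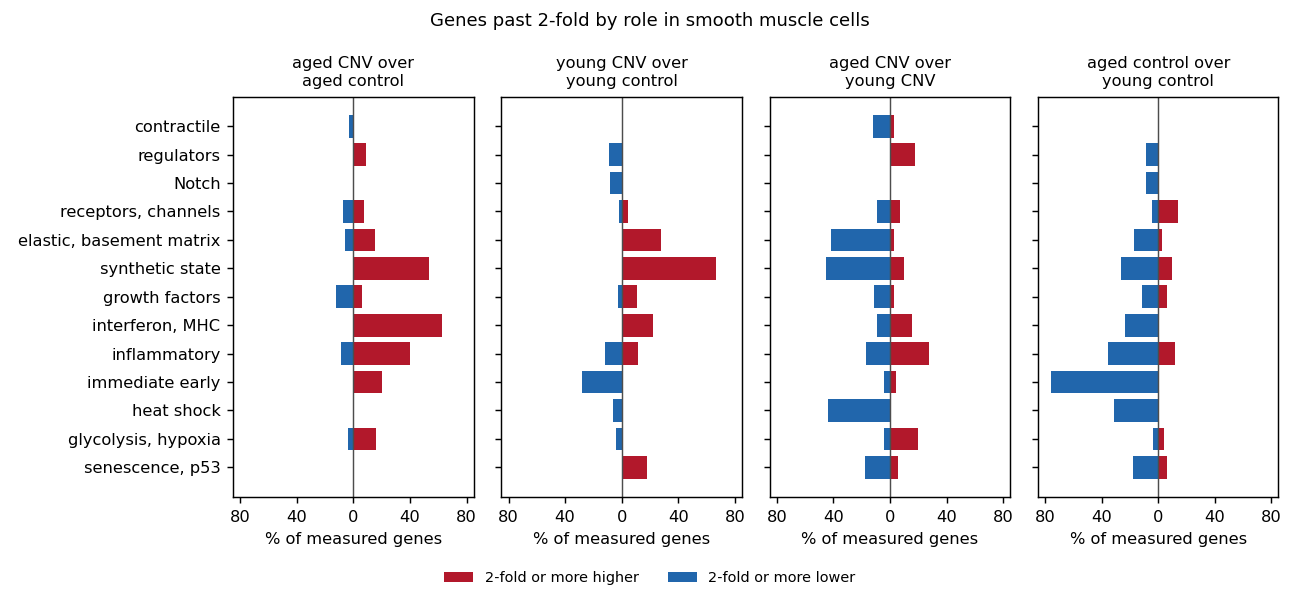
Percent of the measured genes of each list that were 2-fold or more higher (right) or lower (left) in the smooth muscle cells, for 4 pairs of libraries. Synthetic-state genes were higher in both CNV libraries (16 and 20 of 30), interferon genes were called in 20 of 32 in the aged pair and 7 of 32 in the young pair (13 of 31 in each without cells in which another class held 1% of the UMIs), and immediate early genes were lower in aged control than in young control (19 of 25).

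Among the lists by role, interferon-response and antigen presentation genes had the most calls in the aged pair. Of 32 measured, 20 were at least 2-fold higher in aged CNV and none lower, with a median log2 ratio of 1.19. In the young pair 7 of 32 were higher, with a median of 0.59. Some marker lists of other classes had larger shares of calls in the aged pair. There 12 of 12 leukocyte and 9 of 9 fibroblast markers were called higher and 8 of 9 RPE markers lower. Ifitm3, an antiviral membrane protein, was at 839 CPM in aged CNV against 188 in aged control (ratio 4.47, 3.93 to 5.1), and at 1114 CPM in young CNV against 487 in young control (2.29). Isg15, a ubiquitin-like modifier, was at 125 CPM in aged CNV against 33.7 in aged control (3.70, 2.7 to 5.13, and 8.32 thinned to 2000 UMIs per cell), and at 131 CPM in young CNV against 68.1 in young control (1.92, 1.58 to 2.35). Irf7, the transcription factor that amplifies interferon genes, was at 41 CPM in aged CNV against 4.73 in aged control (8.66, 4.04 to 21.3), and at 25 CPM in young CNV against 4.48 in young control (5.58, 2.83 to 12.2). Oasl2 was at 100 CPM in aged CNV against 13.6 in aged control (7.36, 4.67 to 12.1).

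Other classes had calls in these genes too. In the aged pair 15 of 33 were called higher in fibroblasts, with a median of 0.93, where 10% of all measured genes were called higher. In cells with 5 or more endothelial genes 15 of 33 were called higher, with a median of 0.89, beside 10.6% of all genes. In the stricter pericytes, 49 cells of aged CNV against 15 of aged control, 7 of 20 were called higher, with a median of 0.59, beside 15.5% of all genes. Ifitm3 in all other cells of the libraries stood at 832 CPM in aged CNV against 315 in aged control, and at 1510 CPM in young CNV against 827 in young control. Without cells in which another class held 1% or more of the UMIs, 13 of 31 were called higher in the aged pair and 13 of 31 in the young pair, so the gap between the ages in this count was absent there. Without the cells with 5 fibroblast genes the counts were 19 of 31 and 11 of 31.

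**Figure D5:**
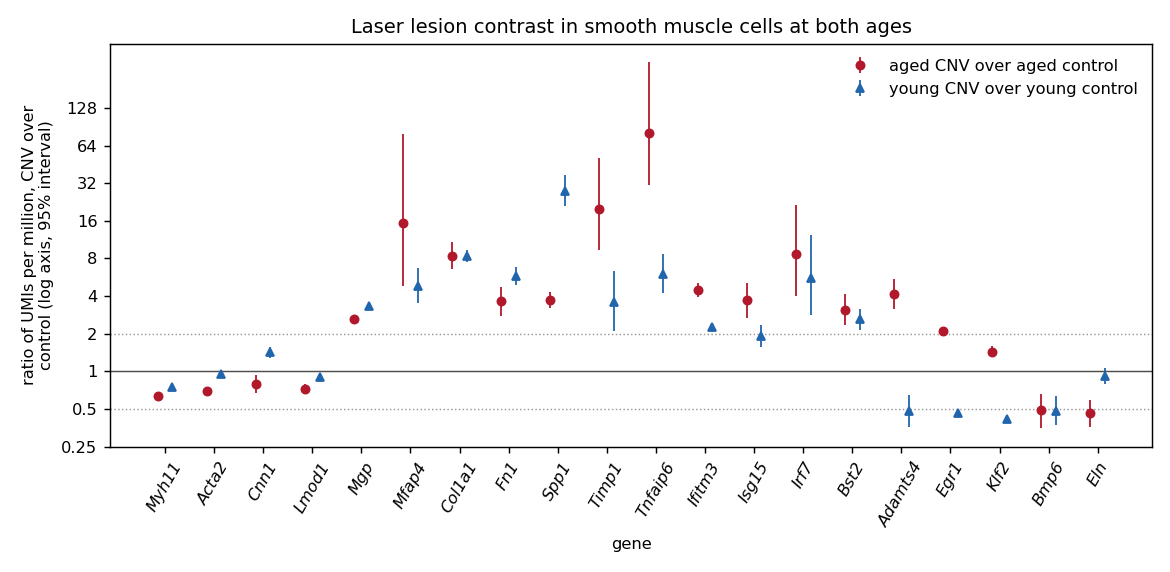
Ratio of CPM, CNV over control, in smooth muscle cells of the aged and young pairs, on a log axis with exact 95% intervals for counting error. Cnn1 and Lmod1 lie between 0.725 and 1.42, Col1a1, Fn1, Mgp, Ifitm3 and Irf7 above 2 in both pairs, Isg15 above 2 in the aged pair only (3.70, against 1.92 in the young pair), Eln below 1 in both, and Adamts4 and Egr1 lie above 2 in the aged pair (4.15 and 2.11) and below 0.5 in the young pair (0.484 and 0.465).

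Inflammatory genes were called in both directions. In the aged pair 14 of 35 were higher and 3 lower, and in the young pair 4 of 34 were higher and 4 lower. Tnfaip6, a hyaluronan-binding protein induced by inflammation, was at 189 CPM in aged CNV against 2.37 in aged control, but the 208 UMIs in aged CNV came from 11 cells, and the ratio of 80.04 was 7.75 without cells in which another class held 1% or more of the UMIs. Ccl8, a chemokine for monocytes, was at 82 CPM in aged CNV against 3.55 in aged control (23.1, 10.2 to 64.6), and at 34 CPM in young CNV against 19.7 in young control (1.73, 1.18 to 2.56). Without cells in which another class held 1% of the UMIs the Ccl8 ratios were 6.60 (aged) and 4.65 (young), and with every cell weighted equally the aged ratio was 10.4. Il6 was at 51.9 CPM in aged CNV against 8.87 in aged control, with its 57 UMIs in 9 cells. The leukocyte and fibroblast sums given above were higher in the same libraries, and their part in these genes was not tested.

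Single genes beyond the lists were chosen by the size of the interval bound nearest to 1. In the aged pair Slc15a2, a peptide transporter (68.3 CPM in aged CNV against 8.87 in aged control, ratio 7.70, and 4.59 without cells in which another class held 1% of the UMIs), Sbno2 (267 against 90.5 CPM), Ptp4a3, a phosphatase (624 against 240 CPM), and Adamts4, a protease of proteoglycans (187 against 45 CPM), were higher. Lower were Wtip, an adaptor of cell junctions (311 CPM in aged CNV against 695 in aged control), Susd5 (92.9 against 217 CPM), Cysltr2, a leukotriene receptor (25.5 against 86.4 CPM), and Tmeff2 (98.3 against 261 CPM). With every cell weighted equally the calls of Wtip and Susd5 ended, at ratios of 0.528 and 0.561. Ednrb, an endothelin receptor best known from endothelium and glia, was at 137 CPM in aged CNV against 34.3 in aged control (3.98, 2.92 to 5.49, and 2.38 thinned to 2000 UMIs per cell), and at 38.7 CPM in young CNV against 40.3 in young control (0.961, 0.71 to 1.3).

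In the young pair Lgals1, a galectin (1480 CPM in young CNV against 656 in young control) and Fst, which binds activins (47.8 against 11.2 CPM), were higher. Without cells with 5 fibroblast genes and without cells in which another class held 1% of the UMIs the call of Lgals1 ended, at ratios of 1.83 and 1.96. The lower genes named there included immediate early genes. Klf2 was at 639 CPM in young CNV against 1536 in young control (0.416, 0.391 to 0.442), Cebpb at 387 against 907 CPM (0.427, 0.394 to 0.462), Gadd45b at 157 against 383 CPM and Nr4a1 at 350 against 760 CPM. Without the cells with 5 fibroblast genes the calls of Cebpb and Nr4a1 ended, at 0.518 and 0.570. Of 25 measured immediate early genes 7 were lower in the young pair and none higher, with a median of -0.85, beside 3.84% of all genes lower. In the aged pair 5 were higher and none lower (1 of 23 higher without cells with 3 markers of another class). Other classes had lower medians of this list in the young pair too, at -0.50 in fibroblasts, -0.58 in cells with endothelial genes and -0.69 in the stricter pericytes. Called lower there were 1 of 26, 2 of 26 and 3 of 24, and none was higher. Of the 16 heat shock genes 1 was lower in the smooth muscle cells of the young pair. Of the genes measured in both pairs, 175 were at least 2-fold higher in both, which is 24.6% of the 710 called in the aged pair and 45.0% of the 389 called in the young pair.

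Among the lists by role, the 2 control libraries differed most often in the immediate early genes, which are copied within minutes of a stimulus. Marker lists of other classes differed as often or nearly so, with 12 of 12 rod markers called lower and 9 of 9 RPE markers called higher in aged control than in young control. Between aged control and young control 9.68% of 11525 genes were called higher and 6.87% lower, which is 1116 and 792 genes, while with TMM scaling 807 were called higher and 1083 lower. Of 25 immediate early genes 19 were called lower in aged control and none higher, with a median log2 ratio of -1.33 beside 0.16 over all genes. Fos was at 1684 CPM in aged control against 5918 in young control (ratio 0.285, 0.273 to 0.296), and Jun at 539 against 2379 CPM (0.227, 0.211 to 0.243). Klf2 was at 417 CPM in aged control against 1536 in young control (0.272, 0.25 to 0.295). In other classes of the same libraries 14 of 26 immediate early genes were called lower in fibroblasts (8.39% of all genes), 13 of 26 in cells with endothelial genes (9.35% of all genes) and 5 of 23 in the stricter pericytes (16.9% of all genes).

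The gap was smaller between the CNV libraries. There 12.4% of 11415 genes were called higher in aged CNV than in young CNV and 7.51% lower, which is 1414 and 857 genes (1037 and 1249 with TMM scaling), and of 25 immediate early genes 1 was called higher and 1 lower. Fos was at 1853 CPM in aged CNV against 3023 in young CNV (0.613, 0.583 to 0.644), and Jun at 1061 against 1322 CPM. Of the 16 heat shock genes, which encode chaperones, 5 were called lower in aged control than in young control and 7 lower in aged CNV than in young CNV. Hspa1a was at 36.7 CPM in aged control against 241 in young control (0.152, 0.115 to 0.198), and at 46.4 CPM in aged CNV against 180 in young CNV (0.257, 0.189 to 0.345).

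Contractile genes were nearly level between aged control and young control, with 0 of 34 called in either direction and a median log2 ratio of 0.18 beside 0.16 over all genes. With TMM scaling 1 was called lower. Between aged CNV and young CNV 4 were called lower and 1 higher, with a median of -0.27 beside 0.15. Actg2 was at 122 CPM in aged CNV against 405 in young CNV (0.302, 0.25 to 0.362), Tpm2 at 2135 against 4554 CPM (0.469, 0.448 to 0.49) and Cnn1 at 219 against 451 CPM (0.484, 0.419 to 0.558). With every cell weighted equally these ratios were 0.393, 0.551 and 0.659, so the calls of Tpm2 and Cnn1 ended there. Sncg, a synuclein, was higher, at 718 CPM in aged CNV against 332 in young CNV (2.16, 1.96 to 2.39), and at 612 CPM in aged control against 316 in young control (1.93, 1.76 to 2.13). The call between the CNV libraries ended with TMM scaling (1.88) and without cells with 5 fibroblast genes (1.68).

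Of 44 receptors and channels 6 were called higher and 2 lower in aged control than in young control, with a median log2 ratio of 0.56 beside 0.16 over all genes. Of 43 between the CNV libraries 3 were called higher and 4 lower in aged CNV, with a median of 0.15 beside 0.15 over all genes. With TMM scaling, which moves the median of all genes by -0.19 in the control pair, 3 were called higher and 2 lower, with a median of 0.38, there, and the Ryr2 and Kcnma1 ratios were 2.19 and 1.95, so the Kcnma1 call ended. Ryr2, Kcnma1 and Slc8a1 all act in the calcium handling of the cell. Ryr2 was at 317 CPM in aged control against 127 in young control (2.49, 2.15 to 2.88), and at 224 CPM in aged CNV against 112 in young CNV (1.99, 1.67 to 2.38), short of 2-fold. Kcnma1, the calcium-activated potassium channel that relaxes the cell, was at 721 CPM in aged control against 325 in young control (2.22, 2.02 to 2.43), and at 607 CPM in aged CNV against 371 in young CNV (1.64, 1.48 to 1.81), which was not called. Slc8a1, the sodium-calcium exchanger, was at 512 CPM in aged control against 253 in young control (2.03, 1.82 to 2.26), and at 545 CPM in aged CNV against 228 in young CNV (2.39, 2.12 to 2.69). The genes called higher in aged control spanned a median of 61.3 kb of genome against 12.1 kb for those called lower and 27.6 kb for all measured genes. The part of gene length in the age ratios was not tested. Ribosomal protein genes held 5.03% of the UMIs in aged control against 8.74% in young control, and the mitochondrial RNA share was 2.05% against 3.65%.

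A set of genes was nearly confined to the young libraries. Adamts19, a secreted protease, had no UMI in aged CNV or aged control, against 53.4 CPM in young CNV and 54.2 CPM in young control, so it was at least 19.5-fold lower in aged CNV than in young CNV and at least 30.5-fold lower in aged control than in young control, with a library at 0 set to 3 counts. Chodl was at 2.73 CPM in aged CNV and 1.77 in aged control, against 101 in young CNV and 77.5 in young control. Hs3st3a1, a heparan sulphate sulphotransferase, was at 8.2 and 5.32 CPM in the same aged libraries, against 129 and 121 CPM in the young ones. Fbn2, the fibrillin made mostly in development, was at 7.29 CPM in aged CNV and 13.6 in aged control, against 124 in young CNV and 121 in young control. In these 4 genes both aged libraries lay below both young libraries. Chodl had a UMI in 13.2% of the cells in young CNV and 10.2% in young control, against 2.27% in aged CNV and 1.02% in aged control. Fbn2 had a UMI in 26.4%, 15.5%, 4.55% and 5.10% of the cells in the same order. These 2 genes were thus found in a minority of the young smooth muscle cells. In rods Fbn2 was found in 2.76%, 5.13%, 2.41% and 1.83% in that order. In the other direction Lars2 was at 859 CPM in aged CNV and 949 in aged control, against 170 in young CNV and 116 in young control. In the whole libraries Lars2 held 0.0543% and 0.0783% of UMIs in the aged CNV and aged control, against 0.0137% and 0.0107% in the young CNV and young control. Gm42418 moved the same way between the ages. It held 1.201% of the smooth muscle UMIs in aged CNV and 1.378% in aged control, against 0.351% in young CNV and 0.314% in young control. Its share of all UMIs was also higher in both aged libraries than in both young ones. Whether Lars2 and Gm42418 differ for a shared reason was not tested. Gphn, which encodes gephyrin, was at 1411 CPM in aged CNV against 350 in young CNV (4.03, 3.7 to 4.39). Of the genes measured in both age pairs, 486 were called higher in both, which is 51.9% of the calls of the control pair and 39.4% of those of the CNV pair, and 291 were called lower in both.

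Matrix genes had more calls between the CNV libraries than between the control libraries. Of 36 matrix genes 15 were called lower and 1 higher in aged CNV than in young CNV, and of 31 synthetic-state genes 14 were lower and 3 higher. Over all measured genes 7.51% were called lower and 12.4% higher there. Between the control libraries 6 of 35 matrix genes and 8 of 30 synthetic-state genes were called lower, beside 6.87% of all measured genes. Col4a1, the collagen of all basement membranes, was at 236 CPM in aged CNV against 586 in young CNV (0.402, 0.351 to 0.46), and at 326 CPM in aged control against 371 in young control (0.879, 0.788 to 0.98). Col1a1 was at 392 CPM in aged CNV against 1241 in young CNV (0.316, 0.285 to 0.35). The fibroblast markers had the same order, at 1941 CPM in aged CNV against 5067 in young CNV. Without the cells with 5 fibroblast genes 12 of 33 matrix genes and 12 of 29 synthetic-state genes were called lower in aged CNV than in young CNV. Without cells in which another class held 1% of the UMIs these were 13 of 35 and 6 of 30. In cells with 5 or more endothelial genes 12 of 36 matrix and 15 of 31 synthetic-state genes were lower, with 0 and 1 higher. In the stricter pericytes 3 of 25 and 10 of 23 were lower, with 2 and 1 higher. In fibroblasts 6 of 36 and 6 of 31 were lower, with 0 and 5 higher. Median log2 ratios of the synthetic-state list were -0.92, -0.84 and -0.28 in these classes, beside 0.22, 0.09 and 0.18 over all genes.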

How the data were processed

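The authors deposited 1 matrix of raw UMI counts for 24783 genes and 36701 cells of 4 libraries, made with Cell Ranger and Seurat 4.1.1 on mm10 per the submitters' processing notes. Other versions and the annotation were not stated there. Column prefixes gave the library, with y read as young and the other code (e) as aged, the one age left, and no column was unmapped. The cells, gene lists and comparisons were chosen with earlier results of these data known. Counts were summed per library over the 132 to 226 smooth muscle cells and divided by their total (CPM). Ratios of CPM carry exact conditional binomial 95% intervals and shares exact Clopper-Pearson ones. They cover counting error only, and a library at 0 UMIs was set to 3 counts. Genes with 20 or more UMIs over both libraries were measured, and 2-fold or more was called. Both methods were tested on simulated data.

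Classes within libraries were compared on summed counts with edgeR 4.0.16 (filterByExpr, TMM, glmQLFTest, library as block, Benjamini-Hochberg) in R 4.3.3. The 4 libraries, 1 from each group, stood in as replicates there, so p-values measure the spread between them. DESeq2 1.42.0 was an alternative, as were other cell filters, denominators, scalings, thinning and thresholds. Python 3.11.15, numpy 2.4.6, scipy 1.17.1 and pandas 2.3.3 did the rest. Named genes were members of the lists, at most 4 per list and pair by the interval bound nearest to no change besides those named for their role, plus per pair the 10 per side with the largest such bound among genes seen in 10 or more cells of the higher library, no cell holding over 30% of its UMIs and a level at or above the other cells there, plus the 10 per side with the largest folds in each class comparison. Adamts4, Tnfaip6, Ccl8, Il6, Ednrb, Sncg and Gphn were followed across the other pairs after their values were seen. No doublet caller was run. Instead, cells with transcripts of another class were left out in alternatives, of which those at 1% of the UMIs and with 5 fibroblast genes, the denominator under 2% rod UMIs and the stricter pericyte rule were chosen after seeing the data. CArG boxes were searched in RefSeq promoter windows. Some genes that the rule would name are not reported here.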

Additional observations from a re-analysis of the deposited data

Results flagged for a closer look

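Of the genes named by the rule and reported here, 3 were called higher in the laser pair of one age and lower in that of the other with both 95% intervals away from 1, and the difference between the ages was not tested, since each group is 1 library. Over the 10546 genes measured in both pairs, 70 were called higher in the aged and lower in the young pair, and 23 lower in the aged and higher in the young pair, whatever their intervals. Adamts4, a protease of proteoglycans, had a CPM ratio of 4.15 in the aged pair (187 CPM in aged CNV against 45 in aged control) and 0.484 in the young pair (32.3 CPM in young CNV against 66.7 in young control). Egr1, an immediate early transcription factor, had 2.11 in the aged pair (1879 CPM in aged CNV against 892 in aged control) and 0.465 in the young pair (1015 CPM in young CNV against 2184 in young control). Its aged ratio was 1.998 without cells in which another class held 1% of the UMIs, and its young ratio was 0.501 without cells with 5 fibroblast genes, 0.529 thinned to 2000 UMIs per cell and 0.508 with every cell weighted equally, so each call ended there. Grm7, a glutamate receptor gene, had 0.167 in the aged pair (19.1 CPM in aged CNV against 115 in aged control) and 2.53 in the young pair (61.1 CPM in young CNV against 24.2 in young control), which became 1.32 in the young pair when thinned, where its call ended.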

How the results depend on the processing

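With 1 library per group the pairs of libraries have no replicate check, and depth limits genes with few UMIs most. The share ratio of young CNV to young control was 1.02 over all cells, 0.827 over cells with under 5 rod markers, 0.782 over vascular cells, 0.645 after thinning to 3000 UMIs and 0.700 over cells with under 2% rod marker UMIs. The ratio of aged control to young control was 1.48, and 1.203 (under 5 rod markers), 0.851 (thinned) and 0.893 (under 2% rod UMIs), so the last 2 reversed it. The ratio of aged CNV to young CNV was 0.843, and 1.15 over vascular cells and 0.665 thinned. The thinning to 3000 UMIs left out cells below that depth and took smooth muscle cells at 3 or more Myh11 UMIs. Leaving out cells with 3 or more markers of another class kept 96, 126, 65 and 6 cells of aged CNV, aged control, young CNV and young control, which nearly empties young control, and moved these ratios to 11.4 (young pair), 35.9 (control pair) and 2.08 (CNV pair).

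Counts of genes past the fold depended on the cells, depth and threshold. In the aged laser pair the 861 higher and 442 lower genes became 420 and 261 without cells with 3 other-class markers, 248 and 239 thinned to 2000 UMIs per cell, 406 and 197 at 50 or more UMIs, 3592 and 1000 at 1 or more UMIs, 456 and 154 at 3-fold and 1646 and 1317 at 1.5-fold, and 292 were lower without cells in which another class held 1% of the UMIs. In the young laser pair the 581 and 447 became 263 and 216 thinned, 288 and 198 at 50 UMIs, 2144 and 2383 at 1 UMI, 236 and 191 at 3-fold and 1251 and 1076 at 1.5-fold. There 357 were higher without cells with 5 fibroblast genes and 272 lower without cells at 1% of another class. Between aged control and young control the 1116 and 792 became 622 and 430 thinned, 631 and 494 at 50 UMIs, 3182 and 2394 at 1 UMI, 484 and 382 at 3-fold and 2836 and 1703 at 1.5-fold, and 1378 were lower without cells with 3 other-class markers. Between aged CNV and young CNV the 1414 and 857 became 604 and 491 thinned, 769 and 570 at 50 UMIs, 624 and 315 at 3-fold and 3007 and 1844 at 1.5-fold, with 5141 higher at 1 UMI and 554 lower without cells with 3 other-class markers. TMM scaling moved the median log2 ratio of all genes by -0.19 between the control libraries and -0.21 between the CNV libraries. Fewer cells, fewer genes tested or another fold make up these changes by construction; for the rest the cause was not tested.

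In the class comparisons the pairing comes from the library, which holds both classes. Against the pericyte rule 1946 genes were higher and 2063 lower with the library as a block, and 1160 and 1098 with no replicate block, 1235 and 1293 thinned, and 915 and 665 against the stricter rule. Leaving out each library in turn gave 1368 to 1567 higher and 1476 to 1611 lower. Against fibroblasts 1640 genes were lower with no replicate block, and leaving out each library gave 1424 to 1890 higher and 1582 to 2295 lower, the lowest without young control.

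Of 2986 values of single genes under the alternatives, 22 changed sign. Leaving out cells at 1% of another class gave a log2 ratio of 0.20 for Slc2a1 and -0.30 for Egln3 in the aged laser pair and 0.23 for Hk2 in the control pair. In the young laser pair Igfbp3 was at -0.066 in cells with under 2 endothelial genes, Tes at -0.69 and Cxcl10 at 1.10 without cells with 5 fibroblast genes, and without cells with 3 other-class markers Tes was at -0.38, Mtus2 at -0.76, Ryr3 at -0.17, Dnajb1 at 1.36 and Angpt2 at -0.45. That same setting gave Apba2 -0.71, Eef1a2 -1.50, Kcnq3 -1.20, Ltbp4 0.022 and Dnajb1 0.88 in the control pair. Klf5 between aged CNV and young CNV was at -0.30 with under 2 endothelial genes, -2.61 without cells with 3 other-class markers, -1.84 without cells at 1% of another class and -0.69 with every cell weighted equally. Against the stricter pericytes Myoc was at 3.52 and Chil1 at 2.21.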

Other observations

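Genes of glycolysis and hypoxia were part of what separated the smooth muscle cells from fibroblasts. Of 25 tested 14 were higher and 1 lower than in fibroblasts, where 15.9% of all genes tested were higher and 18.2% lower. Of 22 tested 3 were higher and 2 lower than in the stricter pericytes, beside 9.29% and 6.75% of all genes. Both counts come from edgeR's quasi-likelihood test at a Benjamini-Hochberg adjusted p under 0.05. Between laser and control libraries the list was called in 4 genes higher and 1 lower of 25 in the aged pair, and 1 lower of 25 in the young pair. Hk2, the hexokinase of muscle, was at 65.6 CPM in aged CNV against 20.7 in aged control, and Slc2a1, a glucose transporter, at 35.5 against 85.8 CPM. Without cells in which another class held 1% or more of the UMIs none of the 25 was called in the aged pair. There the Hk2 ratio was 1.84 in place of 3.17, and the Slc2a1 ratio turned to 1.15 in place of 0.414.

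Secreted growth factors and their receptors were called in both directions. Of 32 measured in the aged pair 2 were higher and 4 lower, and of 36 in the young pair 4 were higher and 1 lower. Over all measured genes 7.81% were called higher and 4.01% lower in the aged pair, and 5% and 3.84% in the young pair. Angpt2, which loosens the contact of mural cells with endothelium, was at 32.8 CPM in aged CNV against 30.2 in aged control (ratio 1.09), and at 57.7 CPM in young CNV against 24.6 in young control (2.34, 1.7 to 3.27). Pdgfb, the growth factor that draws mural cells to vessels, was at 9.11 CPM in aged CNV against 25.4 in aged control (0.358, 0.16 to 0.723), and at 16.8 CPM in young CNV against 24.2 in young control (0.694). Vegfa was at 24.6 CPM in aged CNV against 26.6 in aged control, and at 20.7 CPM in young CNV against 25.5 in young control. Igf1 was lower in both aged libraries, at 24.6 CPM in aged CNV against 80.1 in young CNV and 8.28 CPM in aged control against 64.9 in young control. Slit3, a guidance protein, was at 281 CPM in aged control against 118 in young control (2.38).

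Genes of senescence and the p53 response showed no common direction. Of 15 measured none was called in the aged laser pair, and of 17 measured 3 were higher in the young laser pair, 1 higher and 3 lower in aged control against young control, and 1 higher and 3 lower in aged CNV against young CNV. Over all measured genes 7.81% were higher and 4.01% lower in the aged laser pair, and 5% and 3.84% in the young one. These shares were 9.68% and 6.87% between the control libraries, and 12.4% and 7.51% between the CNV libraries. Few cell cycle genes reached 20 UMIs. Of 9 measured in the aged laser pair 4 were higher, but none of 7 among cells with 10 or more Myh11 UMIs and none of 6 without cells with 3 markers of another class. Mki67, a marker of cycling cells, was at 13.7 CPM in aged CNV against 3.44 CPM in young CNV.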
